A study of Mus musculus with 6 samples.

Results

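The genes described here encode 10 integrins and homing adhesion molecules of blood stem cells: the integrin α subunits *Itga4*, *Itga5*, *Itga6* and *Itga9*, the β subunits *Itgb1*, *Itgb2* and *Itgb7*, and the adhesion receptors *Selplg*, *Cd44* and *Esam*. They were chosen by symbol for their known role in the adhesion of hematopoietic stem cells (HSCs), not by a rule on their values. Earlier results of these data were known at that point. The 10 genes are part of the 26216 gene names in the data. Each is listed once, and all 10 were tested. RNA-seq had been done on long-term and short-term HSCs (LT/ST-HSCs), sorted as Lin-, Annexin-V-, Sca1+, c-kit+, CD150+ and CD48- cells from the bone marrow of mixed chimeras 6 weeks after transplantation. Lethally irradiated Ly5.1/Ly5.2 recipients had received progenitors of both donor types, *Ltbr*-/- mice (CD45.2), which carry a homozygous germline deletion within the lymphotoxin β receptor gene, and *Ltbr*-proficient Ly5.1 mice (CD45.1). The material of 6 chimeras was combined into 3 replicates of each genotype, so that a replicate is not a single animal. The donors were 13 weeks, 10 weeks and 10 to 13 weeks old for *Ltbr*-/- replicates 1, 2 and 3 and 7 to 13 weeks old for the Ly5.1 replicates, so that donor age, donor strain and genotype cannot be fully told apart.

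An integrin is a pair of 1 α and 1 β subunit at the cell surface that binds matrix proteins or receptors on other cells after the adaptors talin and kindlin have activated it from inside. The β1 subunit pairs with α4, α5, α6 and α9, α4 also pairs with β7, and β2 pairs with the leukocyte α subunits. HSCs roll on selectins through PSGL-1 and CD44, arrest on VCAM-1 and fibronectin through α4β1 and α5β1, bind laminin through α6β1, and are retained in the marrow niche by the same receptors. LTβR is a receptor of the tumor necrosis factor family that is bound by LIGHT and signals to NF-κB.

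The deposited value of a gene in a sample was taken as a signal on a linear scale whose log2 is a regularized log. A regularized log is a normalized value in which weakly expressed genes are drawn towards their mean. This reading follows from the values and the methods of the study, not from a label. Read counts are not part of the values, so the sequencing depth of a sample is unknown here and precision rests on the 3 replicates, whose spread may in part be technical. *Ltbr* itself was at 24.2, 26.4 and 23.1 in the *Ltbr*-/- replicates and at 564, 549 and 522 in the Ly5.1 replicates. Of the 12 HSC marker genes, none lay at or below 20 in all samples, and their summed signal was 16109 to 16869 in *Ltbr*-/- and 16937 to 17537 in Ly5.1 samples. All 12 were tested, and 1 was called higher (*Gata2*) and 1 lower (*Ly6a*). Their median log2 difference (*Ltbr*-/- minus Ly5.1) was −0.144, against −0.011 over all tested genes. The sort gate did not leave HSC genes alone in the data. The summed signal of 10 neutrophil genes was 43018 to 43534 in *Ltbr*-/- and 56366 to 60799 in Ly5.1 samples. Of these 10 genes 9 were called lower, against 4.18% of all tested genes. Mast cell and basophil genes (9 genes) summed to 12066 to 12706 against 7969 to 8965, or to 6804 to 7109 against 5923 to 6514 without *Cma1*. In the latter sum *Gata2*, which is also among the 12 HSC markers, held 4554.5 to 4731 against 3813 to 4259. Of the 6 tested genes other than *Cma1*, 4 had a log2 difference below 0 and 2 above 0. Erythroid genes (8 genes) summed to 4561 to 4895 against 3165 to 3526, or to 1519 to 1611 against 1556 to 1679.5 without *Hba-a1* and *Hba-a2*. Single marker genes that differed at least 1.5-fold were *Cma1*, *Emr1*, *Cd53*, *Hba-a1*, *Hba-a2* and *Cd79a*, higher in *Ltbr*-/- samples on the deposited scale, and *Igkc* and *Ighm*, lower. The B cell gene *Ms4a1* was at or below 20 in every sample. Of the 9 tested monocyte and macrophage genes, *Emr1* among them, 2 were called higher and 1 lower (*Lyz2*). Their median log2 difference (*Ltbr*-/- minus Ly5.1) was −0.050. Of the 5 tested multipotent progenitor genes, *Cd53* among them, 1 was called higher and 1 lower (*Flt3*), with a median of 0.012. Over all tested genes 10.6% were called higher and 4.18% lower. The part of these marker genes in the differences of the adhesion genes was not tested. In bulk RNA, fewer cells of a type and less RNA per cell cannot be told apart.

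To order the 10 genes by level, the signal was divided by the length of the longest protein-coding transcript in kilobases (kb). Longer transcripts collect more reads. Genes outside the 10 were not ordered, among them *Itga2b*, whose undivided signal was 8856 to 12025. *Selplg*, which encodes the selectin ligand PSGL-1, stood at the top of the 10 genes with 1091 ± 57.1 signal per kb (SD over the 6 samples). The common β1 subunit gene *Itgb1* followed with 853 ± 55.2 per kb and *Itgb2*, the β subunit of leukocyte integrins, with 742 ± 50.4 per kb. The 6 values of *Itgb1* and of *Itgb2* overlapped, so their order is not set by these samples, whereas every value of *Selplg* lay above both.

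*Itgb7* was at 474 ± 50.1 per kb, *Esam*, which encodes an endothelial and HSC surface adhesion molecule of the immunoglobulin family, at 449 ± 55.3 per kb, *Itga6* at 336 ± 32.8 per kb and *Itga5* at 327 ± 30.0 per kb. Each of these 4 overlapped with its neighbour in the order, and together they were apart from *Itgb2* above and from *Cd44* below. *Cd44*, which encodes the hyaluronan receptor, was at 192 ± 10.3 per kb and *Itga4* at 130 ± 12.8 per kb, without overlap. *Itga9* was the lowest at 7.76 ± 0.254 per kb. The α subunit genes were thus all below the β1 gene per length, and the levels of α4 and α9 were the lowest of the 10 genes. Per-kb values depend on which transcript is used for the length, and any pull of weak genes towards their mean would apply to *Itga9* more than to the others.

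**Figure D1:**
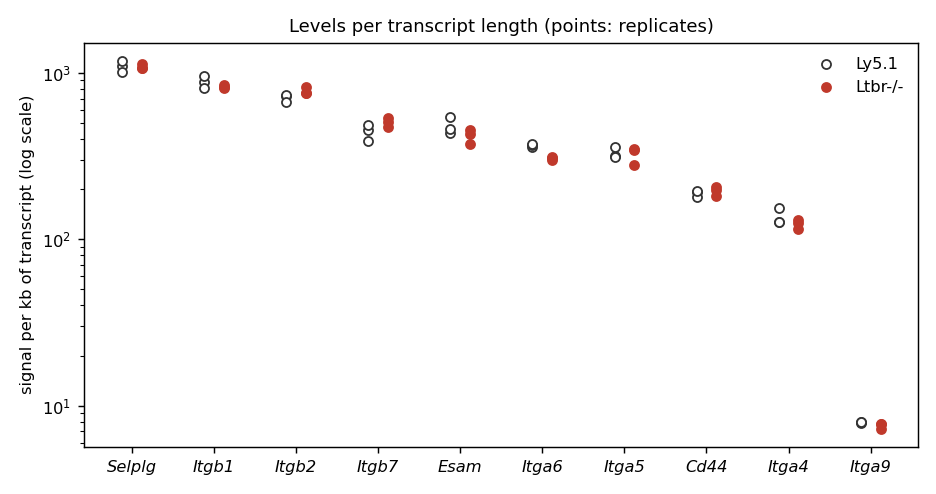
Signal per kb of transcript (log scale) of the 10 genes in each of the 3 Ly5.1 (open black) and 3 *Ltbr*-/- (filled red) replicates, ordered by the mean over the 6 samples. *Selplg* is apart at the top and *Itga9* at the bottom, and within a gene the genotypes lie close together compared with the spacing from the top to the bottom of the order.

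The study compared *Ltbr*-/- with Ly5.1 LT/ST-HSCs from the same chimeras to find what the loss of LTβR changes within the cells. Among the 10 adhesion genes, limma called 1, *Itga6*, with an adjusted p under 0.05, and it was lower in *Ltbr*-/- samples. In the whole data set, 14.8% of the 13108 tested genes had an adjusted p under 0.05 in either direction, 4.18% lower and 10.6% higher, so that 1 of 10 is near the background. None of the 10 reached a 1.5-fold difference with that adjusted p, the pair of thresholds of the study, which 2.78% of tested genes passed. At an unadjusted limma p under 0.05 stood 3 of the 10, *Itga6*, *Itgb7* and *Esam*, as did 27.1% of all tested genes. The largest upper bound of the 10 confidence intervals was 0.38 and the smallest lower bound −0.42 on the log2 scale, so that every interval lay within 1.5-fold of no difference. The log2 differences (*Ltbr*-/- minus Ly5.1) of the 10 genes had a median of −0.048, against −0.011 over all tested genes, whose quartiles were −0.100 and 0.091. In 7 genes the difference was below 0 and in 3 above 0. The groups did not overlap in 3 of 10 genes, as was the case in 30.4% of tested genes. These directions hold on the deposited scale. Centring each sample on the 78 tested ribosomal protein genes puts the median log2 difference of all tested genes at −0.88. All 10 genes are then below 0, each in nearly the same place relative to the other tested genes.

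**Figure D2:**
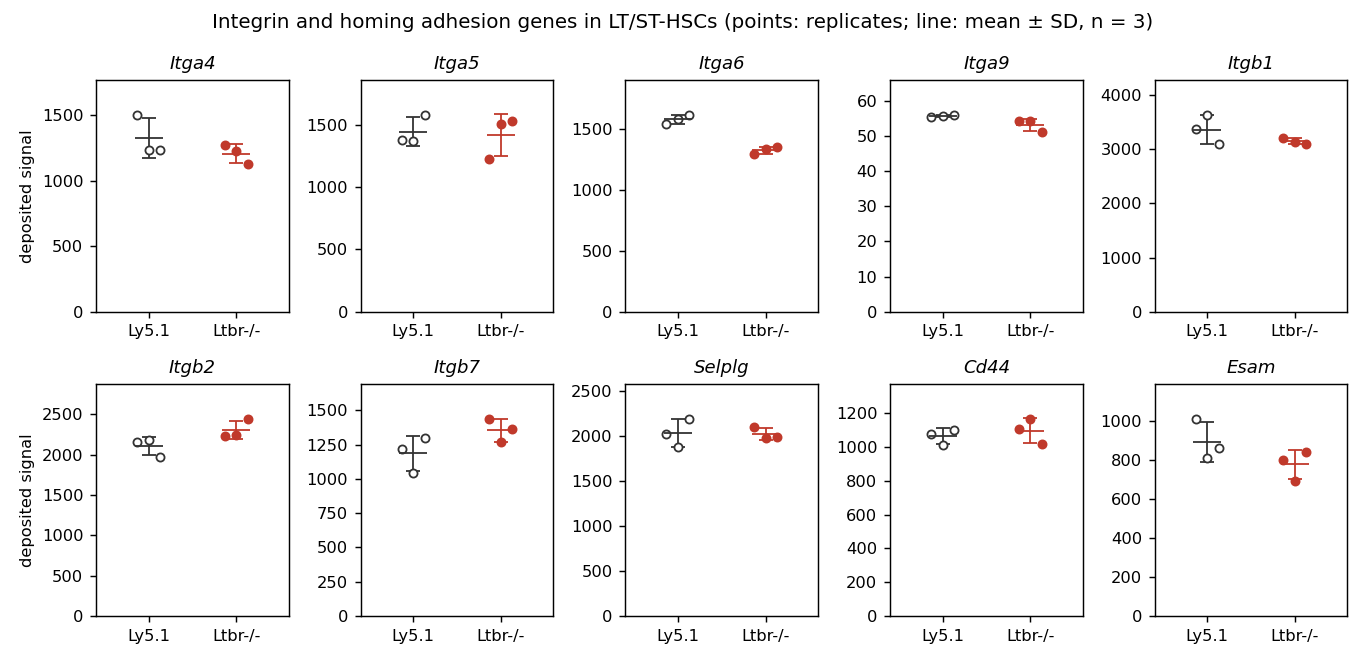
Deposited signal (linear axis from 0) of the 10 genes in the 3 Ly5.1 (open black) and 3 *Ltbr*-/- (filled red) replicates, with the mean ± SD of each group. The groups are apart in *Itga6*, *Itga9* and *Itgb2* and overlap in the other 7 genes.

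Of the α subunits, *Itga6*, whose product forms a laminin receptor with β1 or β4 and is a long-used HSC marker, was at 1293, 1329 and 1346 in *Ltbr*-/- replicates and at 1539.9, 1577 and 1611 in Ly5.1 replicates. All 3 *Ltbr*-/- values lay below all Ly5.1 values, with a spread within each group that was small beside the gap. The means were 1323 ± 27.0 and 1576 ± 35.5 (SD, n = 3), a signal 0.839 times that of Ly5.1 cells. The log2 difference was −0.25 (SE 0.08, 95% confidence interval −0.42 to −0.08, limma adjusted p = 0.0341), and the exact two-sided permutation test gave p = 0.1, the smallest that 3 against 3 allows. The call did not survive leaving out any 1 of the 6 samples, with log2 differences from −0.27 to −0.24 and limma adjusted p from 0.0556 to 0.109. It was also lost after a correction for transcript length and GC content, where the log2 difference was −0.21 (limma adjusted p = 0.0629). Of the 76-base stretches of *Itga6* transcripts, 5.93% also occur in the pseudogene *Gm29397*.

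*Itga4*, which encodes the α4 subunit of the VCAM-1 and fibronectin receptor VLA-4, was at 1271, 1228 and 1125 in *Ltbr*-/- and at 1501, 1238 and 1233 in Ly5.1 replicates. Ly5.1 replicate 1 stood above the others, and the other 5 values were intermixed. On the log2 scale the difference was −0.13 (95% confidence interval −0.31 to 0.06, limma adjusted p = 0.385). Of the 76-base stretches of *Itga4* transcripts, 10.1% are antisense to *Cerkl*, and *Cerkl* had a signal of 68.7 to 82.9 over the 6 samples.

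*Itga5*, the gene of the fibronectin receptor subunit α5, was at 1225, 1505 and 1535 in *Ltbr*-/- and at 1379.9, 1376 and 1579.9 in Ly5.1 replicates. *Ltbr*-/- replicate 1 was the lowest, and the other values were intermixed. This gave a log2 difference of −0.03 (95% confidence interval −0.21 to 0.16, limma adjusted p = 0.887), and it was 0.01 with the correction for length and GC content.

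*Itga9*, whose product binds VCAM-1, tenascin-C and osteopontin, was at 54.3, 54.1 and 51.2 in *Ltbr*-/- and at 55.5, 55.7 and 56.0 in Ly5.1 replicates. The groups did not overlap, but the gap between them was smaller than the range of the *Ltbr*-/- values. The log2 difference was −0.07 (95% confidence interval −0.19 to 0.06, limma adjusted p = 0.525; exact two-sided permutation p = 0.1), and it was 0.02 with the correction for length and GC content. All 4 α subunit genes were thus below 0 on the deposited scale, *Itga5* and *Itga9* by amounts that changed sign with that correction.

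Of the β subunits, *Itgb1* was at 3202, 3133 and 3100.3 in *Ltbr*-/- and at 3371, 3627 and 3086 in Ly5.1 replicates. The *Ltbr*-/- values lay close together inside the wider range of the Ly5.1 values. On the log2 scale the difference was −0.09 (95% confidence interval −0.25 to 0.06, limma adjusted p = 0.479).

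*Itgb2*, which encodes the β2 subunit of LFA-1 and Mac-1, was at 2233, 2246 and 2438 in *Ltbr*-/- and at 2160.0, 2177 and 1976 in Ly5.1 replicates. All 3 *Ltbr*-/- values were above all Ly5.1 values, by a gap smaller than the range of either group. This gave a log2 difference of 0.13 (95% confidence interval −0.03 to 0.30, limma adjusted p = 0.299; exact two-sided permutation p = 0.1) and −0.73 when samples were centred on ribosomal protein genes. The neutrophil genes, whose cells carry β2 integrins, were lower in the same samples.

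*Itgb7*, the gene of the β7 subunit that pairs with α4 to bind MAdCAM-1, was at 1435, 1267 and 1367 in *Ltbr*-/- and at 1219, 1045.5 and 1297.5 in Ly5.1 replicates. Only *Ltbr*-/- replicate 2 fell within the Ly5.1 range, and the means were 1356 ± 84.7 and 1187 ± 129 (SD, n = 3). The log2 difference was 0.20 (95% confidence interval 0.01 to 0.38), and the limma p of 0.0374 became 0.153 after adjustment over all tested genes. Centred on ribosomal protein genes, the value was −0.67. Mast cells also carry β7 integrin. Of the 7 tested mast cell and basophil genes 3 were called higher in *Ltbr*-/- samples on the deposited scale, *Cma1*, *Cpa3* and *Gata2*, and 1 lower. Over all tested genes 10.6% were called higher and 4.18% lower. *Gata2* is also among the HSC markers. The median log2 difference of the 7 genes was −0.037.

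*Selplg* was at 2096, 1974.5 and 1987 in *Ltbr*-/- and at 2025, 1877 and 2183 in Ly5.1 replicates. The *Ltbr*-/- values lay inside the Ly5.1 range, and the log2 difference was −0.0041 (95% confidence interval −0.17 to 0.16, limma adjusted p = 0.984). PSGL-1 must be glycosylated to bind selectins, which a transcript level does not show.

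*Cd44* was at 1104, 1163 and 1017 in *Ltbr*-/- and at 1076, 1011 and 1101 in Ly5.1 replicates. The groups were intermixed, and the log2 difference was 0.04 (95% confidence interval −0.14 to 0.22, limma adjusted p = 0.813), or −0.82 with ribosomal centring. *Cd44* has many splice forms, which a gene-level signal does not separate.

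*Esam*, whose product is a surface marker of HSCs and of endothelium, was at 802, 694 and 842 in *Ltbr*-/- and at 1011, 811 and 862 in Ly5.1 replicates. *Ltbr*-/- replicates 1 and 2 were below the Ly5.1 range and replicate 3 was within it, with means of 779 ± 76.3 and 895 ± 104 (SD, n = 3). On the log2 scale the difference was −0.20 (95% confidence interval −0.39 to −0.0021), and the limma p of 0.0477 became 0.179 after adjustment. With the correction for length and GC content the log2 difference was −0.28 (limma adjusted p = 0.0349). The 7 endothelial markers summed to 2115 to 2357 in *Ltbr*-/- and 1953 to 2253 in Ly5.1 samples, with none of the 5 tested called by limma and a median log2 difference of 0.011. *Cdh5* and *Plvap* were at or below 20 in every sample and the other 5 were not. Their part in the *Esam* values was not tested.

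**Figure D3:**
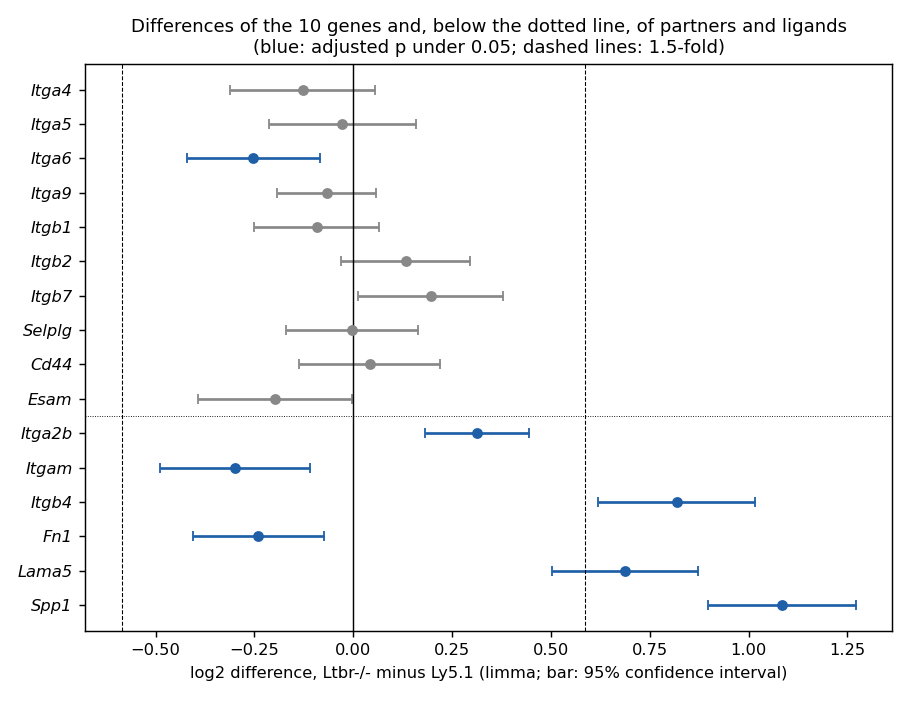
Log2 differences (*Ltbr*-/- minus Ly5.1, deposited scale) with 95% confidence intervals from limma for the 10 genes and, below the dotted line, for other integrin subunits and ligands with an adjusted p under 0.05. The 10 intervals lie inside the dashed 1.5-fold lines, whereas *Itgb4* and *Spp1* lie beyond them; with samples centred on ribosomal protein genes, *Itga2b*, *Itgb4* and *Lama5* change sign.

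Subunits that pair, genes that share a partner and the receptors *Cd44* and *Selplg* were then compared within each sample, since a ratio of 2 genes in a sample does not depend on the scaling between samples. Of the 8 ratios, none had a Benjamini-Hochberg adjusted p from the exact two-sided permutation test below 0.4, and with 3 against 3 the unadjusted p cannot go below 0.1. *Itga6* to *Itgb1* (α6β1) differed by −0.16 (SE 0.08) on the log2 scale. The groups were barely apart here, as the lowest Ly5.1 ratio (−1.2013) stood next to the highest *Ltbr*-/- ratio (−1.2038). *Itgb2* to *Itgb1* differed by 0.23 (SE 0.06), again without overlap of the groups.

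*Itga4* to *Itgb7* (α4β7) differed by −0.32 (SE 0.13) and *Itgb7* to *Itgb1*, the β partners between which α4 can choose, by 0.29 (SE 0.16). In both ratios the groups overlapped through Ly5.1 replicate 3, which resembled the *Ltbr*-/- samples. *Itga4* to *Itgb1* (VLA-4) differed by −0.04 (SE 0.12), *Itga5* to *Itgb1* by 0.07 (SE 0.18), *Itga9* to *Itgb1* by 0.03 (SE 0.07) and *Cd44* to *Selplg* by 0.05 (SE 0.07), all with overlapping groups. The 2 subunits of VLA-4 thus kept a ratio whose difference between genotypes was smaller than its standard error.

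**Figure D4:**
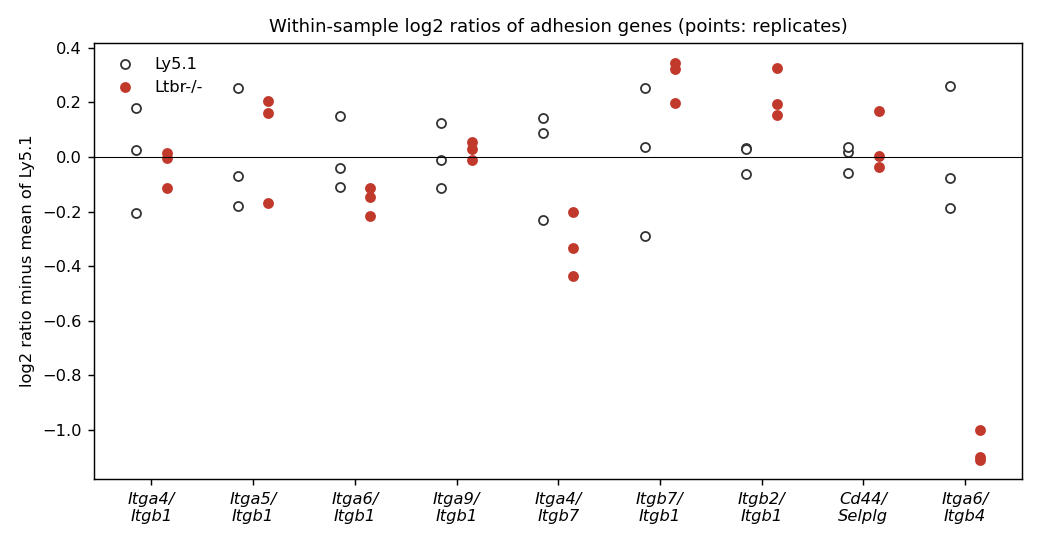
Within-sample log2 ratios of pairs of genes minus the Ly5.1 mean, in 3 Ly5.1 (open black) and 3 *Ltbr*-/- (filled red) replicates. The first 8 ratios lie mostly within 0.4 of the Ly5.1 mean, and that of *Itga6* to *Itgb4*, chosen after its values were seen, is about 1 lower in all 3 *Ltbr*-/- samples.

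For each of the 3 genes that varied most over the 6 samples, the 2 tested genes with the nearest profile were found by the root mean square distance of the centred log2 values. They were *Fam126a* (0.0242) and *Gramd3* (0.0341) for *Esam*, *Pgp* (0.0305) and *Acad12* (0.0389) for *Itgb7*, and *Psd4* (0.0203) and *Crtc3* (0.0220) for *Itga6*. None of these 6 belongs to the adhesion lists used here.

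The other integrin subunits held larger differences than the 10 genes. Of 19 such genes 13 were tested, and 2 of them were called higher and 1 lower by limma (23.1%, against 14.8% of all tested genes). Their median log2 difference was −0.078. *Itgb4*, the laminin-binding β4 subunit that pairs only with α6, was at 999, 1020 and 965 in *Ltbr*-/- and at 627, 471 and 608 in Ly5.1 replicates. Every *Ltbr*-/- value was above every Ly5.1 value, and the log2 difference was 0.82 (SE 0.10, limma adjusted p = 3.19e-08), a fold of 1.76. Centred on ribosomal protein genes, the log2 difference was −0.05 (limma adjusted p = 0.706). Within samples, the log2 ratio of *Itga6* to *Itgb4* was 0.41 ± 0.06 in *Ltbr*-/- and 1.48 ± 0.23 in Ly5.1 cells (SD, n = 3), a difference of −1.07 (SE 0.14; exact two-sided permutation p = 0.1). This ratio does not depend on the scaling, and it was chosen after the values had been seen.

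*Itga2b*, the platelet and early progenitor subunit αIIb, was at 11547, 11349 and 12025 in *Ltbr*-/- and at 9321, 8856 and 9964 in Ly5.1 replicates. The groups were apart, with a log2 difference of 0.31 (SE 0.06, limma adjusted p = 0.000461), or −0.55 with ribosomal centring. Under quantile normalization the difference was 0.01 (limma adjusted p = 0.904), so that the call rests on the scaling. The megakaryocyte and platelet genes, of which *Itga2b* is itself 1 of 8, summed to 14698 to 15523 in *Ltbr*-/- and 12514 to 13882 in Ly5.1 samples. The other 7 genes summed to 3349 to 3498 in *Ltbr*-/- and 3657 to 3918 in Ly5.1 samples, the other direction. In the latter sum *Vwf* held 1919 to 1992 against 2238.5 to 2312 (log2 difference −0.22, limma adjusted p = 0.0555). Of the 6 tested genes other than *Itga2b*, 4 had a log2 difference below 0 and 2 above 0. *Itgam*, the αM partner of β2 in Mac-1 on myeloid cells, was at 848, 659 and 767 against 937, 939.9 and 907, with a log2 difference of −0.30 (limma adjusted p = 0.0259). The call was lost in 4 of 6 fits that left out 1 sample and with the length and GC correction (−0.25, limma adjusted p = 0.0534). Its value is uncertain, as 71.7% of its 76-base stretches also belong to the annotated gene *Gm49368*. Neutrophil genes were lower in the same samples.

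Of 14 genes for ligands of these receptors, 6 fell below the tested range, namely *Madcam1*, *Sele*, *Tnc* and the hyaluronan synthases *Has1*, *Has2* and *Has3*. Of the 8 tested, 2 were called higher and 1 lower (37.5%, against 14.8% of all tested genes), with a median log2 difference of 0.088. *Spp1*, which encodes osteopontin, a ligand of α4 and α9 integrins and of CD44, was at 1014, 950.4 and 1023 in *Ltbr*-/- and at 516, 456 and 439 in Ly5.1 replicates. Every *Ltbr*-/- value lay far above every Ly5.1 value. Its log2 difference was 1.08 (SE 0.09, limma adjusted p = 6.89e-12), a fold of 2.12, and it was 0.22 (limma adjusted p = 0.0794) with ribosomal centring. *Gm42793* shares 7.4% of its 76-base stretches.

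*Lama5*, the laminin α5 chain that α6 integrins bind, was at 1479, 1583 and 1663 in *Ltbr*-/- and at 881, 950.5 and 1112 in Ly5.1 replicates. The groups were apart, with a log2 difference of 0.69 (SE 0.09, limma adjusted p = 2.8e-07), or −0.18 (limma adjusted p = 0.132) with ribosomal centring. *Fn1*, which encodes fibronectin, was at 3016, 3047 and 2607 against 3693, 3411 and 3133, apart in the other direction. Its log2 difference of −0.24 (limma adjusted p = 0.0419) lost the call in 4 of 6 fits that left out 1 sample, and it was −0.14 (limma adjusted p = 0.195) with the length and GC correction.

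**Figure D5:**
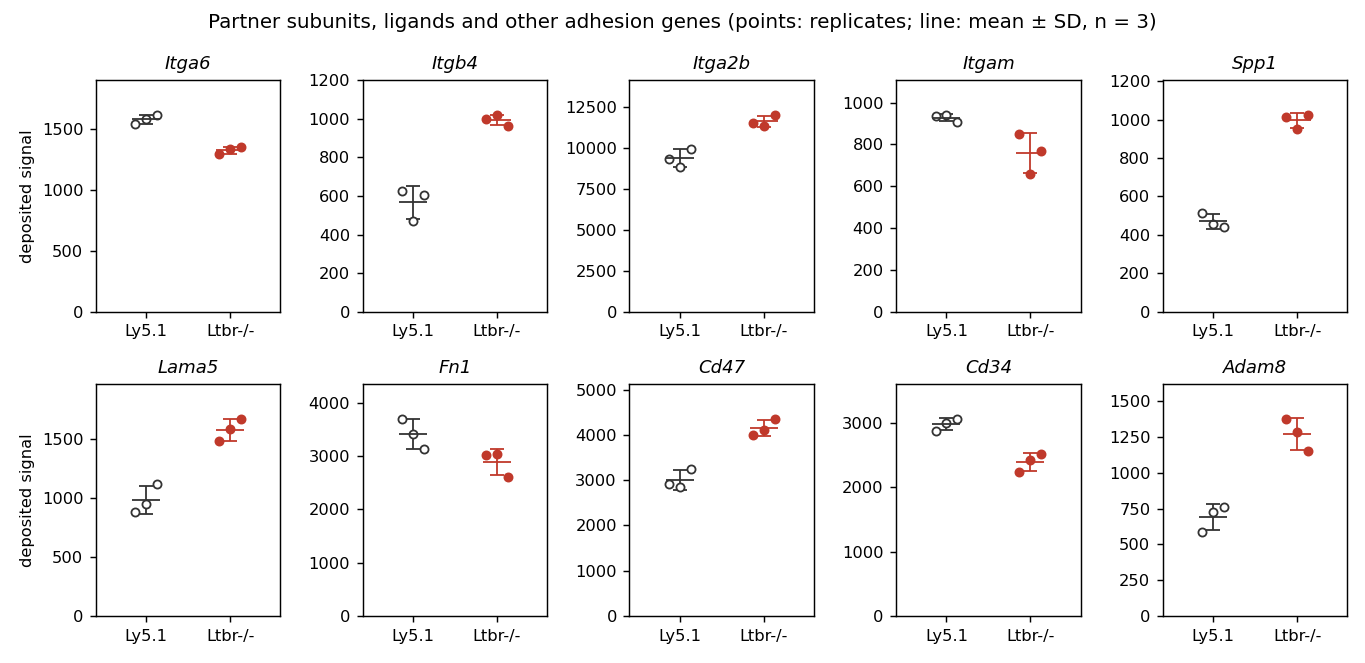
Deposited signal (linear axis from 0) of *Itga6*, its partner *Itgb4*, further integrin subunits, ligands and other adhesion genes in 3 Ly5.1 (open black) and 3 *Ltbr*-/- (filled red) replicates, with mean ± SD. The groups are apart in every panel, *Itga6*, *Itgam*, *Fn1* and *Cd34* being lower and the others higher in *Ltbr*-/- samples on the deposited scale. With ribosomal centring *Itga2b* and *Cd47* are called lower too, and *Itgb4*, *Lama5*, *Spp1* and *Adam8* are not called.

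The genes that activate integrins and link them to actin were called about as often as all tested genes: of 34 genes 30 were tested, 1 was called higher and 3 lower (13.3%, against 14.8% of all tested genes), none by 1.5-fold. At an unadjusted limma p under 0.05 stood 13 of the 30, against 27.1% of all tested genes, and the median log2 difference was −0.051. The focal adhesion scaffold *Pxn* (paxillin, −0.29), the actin cross-linkers *Flna* (filamin A, −0.22) and *Actn4* (α-actinin 4, −0.21) were the lower genes, with limma adjusted p of 0.0296, 0.0103 and 0.0461. *Bcar1*, which encodes the adaptor p130Cas, was weakly expressed and higher by 0.32 on the log2 scale (limma adjusted p = 0.000373), or −0.54 with ribosomal centring. The calls of *Pxn* and *Actn4* were each lost in 4 of 6 fits that left out 1 sample, and that of *Flna* in 2. *Flna* was at −0.12 (limma adjusted p = 0.0892) with the length and GC correction and at −0.59 under quantile normalization, where *Actn4* was at −0.37. Talin and kindlin-3, *Tln1* and *Fermt3*, were not called, with log2 differences of −0.15 (limma adjusted p = 0.101) and 0.02 (0.925).

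Among 30 other homing and junction molecules, 29 were in the data and 23 were tested. Of these, 2 were called higher and 2 lower (17.4%, against 14.8% of all tested genes), with a median log2 difference of −0.093. *Cd47*, whose product binds thrombospondin and SIRPα and associates with integrins, was at 4005, 4108 and 4346 in *Ltbr*-/- and at 2906, 2843 and 3246 in Ly5.1 replicates, a log2 difference of 0.47 (SE 0.08, limma adjusted p = 1.35e-05), or −0.39 with ribosomal centring. *Cd34*, a sialomucin that can serve as a selectin ligand, was at 2244.5, 2425 and 2524 against 2875, 2999.5 and 3056, a log2 difference of −0.31 (SE 0.08, limma adjusted p = 0.00434). Both genes were apart between the groups in opposite directions. In the study, surface CD34 separates ST-HSCs (CD34+) from LT-HSCs (CD34-), and the sort for RNA-seq did not use it. For *Cd34*, another mix of LT-HSCs and ST-HSCs and another level per cell cannot be told apart here. *Cd93* was lower, with a log2 difference of −0.27 (limma adjusted p = 0.0436), a call lost in 5 of 6 fits without 1 sample and with the length and GC correction (−0.19, limma adjusted p = 0.152). *Icam4* was higher by 0.28 (limma adjusted p = 0.0307), or −0.58 with ribosomal centring. It was 0.10 (limma adjusted p = 0.516) with the length and GC correction and lost the call in 4 of 6 fits without 1 sample. In addition, 92.1% of its 76-base stretches lie antisense to *Gm47079*, and whether the counting used strand is not given in the sources used here. The chemokine receptor of homing, *Cxcr4*, was at a mean of 1577 ± 35.4 against 1795 ± 121 (SD, n = 3) and missed the threshold with a log2 difference of −0.19 (limma adjusted p = 0.14). It is named, like *Tln1* and *Fermt3*, for its known role and after its values were seen.

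The enzymes that build the selectin-binding glycans of PSGL-1 and CD44 were all tested. None of the 10 was called by limma, against 14.8% of all tested genes, and their median log2 difference was 0.021. Their count at an unadjusted p under 0.05 was 2 of 10, against 27.1% of all tested genes. These were the fucosyltransferase *Fut7* (log2 difference 0.24) and the sialyltransferase *St3gal4* (0.23), named after their values were seen. Limma without trend called 1 of the 10. The list of sheddases, which cut CD44 and other adhesion receptors from the surface, matrix proteases and their inhibitors (*Timp1*, *Timp2* and *Reck*) held 10 genes. Of these, 2 were called higher and 2 lower by limma on the deposited scale (40%, against 14.8% of all tested genes), with a median of −0.067. *Adam8* was at 1374, 1286 and 1149 in *Ltbr*-/- and at 586, 726 and 763 in Ly5.1 replicates, apart from each other. Its log2 difference was 0.88 (SE 0.10, limma adjusted p = 4.95e-09), a fold of 1.84, or 0.02 with ribosomal centring. *Adam15* was higher by 0.33 (limma adjusted p = 0.0104), or −0.53 with ribosomal centring, and lost its call in 1 of 6 fits without 1 sample. *Adam10*, a sheddase of CD44, and the protease inhibitor *Reck* were lower, with log2 differences of −0.28 and −0.22 (limma adjusted p of 0.0137 and 0.0155), and each lost its call in 2 of 6 fits without 1 sample. Over these lists only *Itgb4*, *Spp1*, *Lama5* and *Adam8* passed both thresholds.

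The 10 genes lie on 6 chromosomes, and none is on chromosome 6 with *Ltbr* or on chromosome 1 with *Ptprc*, the gene that separates CD45.1 from CD45.2. In GRCm38.p6, *Itga4*, *Itga6* and *Cd44* are on chromosome 2, where *Itga4* spans chr2:79255426-79333114 and *Itga6* chr2:71786886-71858427. *Itgb1* is at chr8:128685654-128733579. *Itgb7* and *Itga5* are on chromosome 15, at chr15:102215994-102233405 and chr15:103344286-103366791. The others are *Cd44* at chr2:102811141-102901669, *Itga9* at chr9:118606709-118901003, *Esam* at chr9:37528089-37538319, *Itgb2* at chr10:77530329-77565708 and *Selplg* at chr5:113817798-113832528. Among the called genes of the other adhesion lists, *Fn1* (chr1:71585473-71653280) and *Cd34* (chr1:194938821-194961292) are on chromosome 1 with *Ptprc* (chr1:138062859-138175756). None of them is on chromosome 6. An effect of these positions was not tested.

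Promoters were read from RefSeq (GRCm38.p6), which held an entry for 6 of the 10 genes, not for *Itga6*, *Itgb2*, *Selplg* and *Esam*. The 250 bases upstream of the start site are shown, in the direction of transcription, for *Itga4* and *Itgb1*, the subunits of VLA-4, and for *Itga2b* and *Spp1*, which were higher in *Ltbr*-/- samples on the deposited scale; they were chosen after the values were seen. Capitals mark GAGGAA (the ETS motif as bound by PU.1), TGTGGT (the RUNX motif, which reads ACCACA when on the other strand) and GGGCGG (the GC box), searched on both strands. *Itga4* is at chr2:79255176-79255425 on the plus strand, *Itgb1* at chr8:128685404-128685653 on the plus strand, *Itga2b* at chr11:102469884-102470133 on the minus strand and *Spp1* at chr5:104434861-104435110 on the plus strand.
Itga4: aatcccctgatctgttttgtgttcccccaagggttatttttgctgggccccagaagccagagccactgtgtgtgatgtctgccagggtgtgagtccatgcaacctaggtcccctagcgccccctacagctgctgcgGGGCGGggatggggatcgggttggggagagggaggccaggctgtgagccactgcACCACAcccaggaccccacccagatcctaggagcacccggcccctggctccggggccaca
Itgb1: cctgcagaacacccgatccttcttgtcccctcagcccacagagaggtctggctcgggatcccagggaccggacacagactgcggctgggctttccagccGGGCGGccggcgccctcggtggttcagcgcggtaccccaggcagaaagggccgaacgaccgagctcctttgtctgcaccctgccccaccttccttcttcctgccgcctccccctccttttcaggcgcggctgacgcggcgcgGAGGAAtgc
Itga2b: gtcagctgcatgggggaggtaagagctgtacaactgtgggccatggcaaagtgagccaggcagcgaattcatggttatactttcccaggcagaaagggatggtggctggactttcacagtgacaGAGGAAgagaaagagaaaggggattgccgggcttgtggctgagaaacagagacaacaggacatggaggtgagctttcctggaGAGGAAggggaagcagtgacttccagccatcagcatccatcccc
Spp1: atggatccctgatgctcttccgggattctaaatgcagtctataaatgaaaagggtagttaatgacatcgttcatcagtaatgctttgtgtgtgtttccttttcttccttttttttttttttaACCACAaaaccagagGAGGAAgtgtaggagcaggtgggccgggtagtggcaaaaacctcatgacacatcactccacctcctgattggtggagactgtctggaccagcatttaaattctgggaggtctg
In *Itga4* the RUNX match began 60 and the GC box 114 bases upstream of the start. *Itgb1* had the ETS motif at 9 and the GC box at 151 bases, *Itga2b* had the ETS motif at 126 and 44 bases, and *Spp1* had it at 113 bases beside a RUNX match at 128 bases. No 2 of these matches overlapped. Another RefSeq start site of *Spp1*, whose sequence is not shown, held none of these motifs. Over the 6 promoters at hand, GAGGAA occurred in 3 genes, TGTGGT in 1 and GGGCGG in 3, and the NF-κB consensus in none. Of all 32851 RefSeq promoters of the same length, 23.3% held GAGGAA, 14% TGTGGT, 32.7% GGGCGG and 7.25% the NF-κB consensus, so that a match is common and describes the letters only.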

How the data were processed

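RNA of sorted LT/ST-HSCs was sequenced by the authors from stranded mRNA libraries as single reads, in 3 replicates per genotype. SeqMan NGen was used by the authors for assembly and ArrayStar for quantification as regularized log values; the submitters' processing notes also name DESeq2, GRCm38 and mm10. The deposited signal of each gene and sample was never negative, was equal to 1 in the same entries of every file, and was treated as 2 to the power of the regularized log. Strand use in counting, the annotation and per-sample depth are not given in the sources used here, so no counting interval was computed.

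Of 26216 names (75 listed more than once, of which the highest by mean was used), the upper 50% by mean log2 value, 13108 genes, were fitted without pseudocount with limma 3.58.1 (lmFit, eBayes with trend) in R 4.3.3, with Benjamini-Hochberg adjustment over all of them. The lowest mean tested was a signal of 14.4. A gene was called at an adjusted p under 0.05, and counts with a fold of at least 1.5 are given beside it. Single genes and within-sample ratios were compared by the exact two-sided permutation test. Levels per length, positions and 76-base stretches shared with other genes used GENCODE M21 and GRCm38.p6. Alternatives were the replicate block, no filter, the upper 25%, quantile normalization, centring on the median or on 78 ribosomal protein genes, limma without trend, robust limma, a linear model without moderation, a pseudocount of 1, another entry of repeated names, a correction for length and GC content, and leaving out each sample.

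The 10 genes and all lists were chosen with earlier results of these data known. Besides the 10 genes and *Ltbr*, the text names, of the adhesion lists, genes past both thresholds and the 3 largest differences in each direction among those past the adjusted p alone; of the marker lists, genes past both thresholds; and the 2 nearest profiles of the 3 most variable of the 10 genes. Deviations of samples with the same replicate number correlated by 0.03, −0.01 and 0.09, so the numbers were not taken to pair the samples.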

Additional observations from a re-analysis of the deposited data

How the results depend on the processing

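The absence of a 1.5-fold difference with an adjusted p under 0.05 among the 10 genes held under all alternatives except centring on ribosomal protein genes. The *Itga6* call was lost without a filter (log2 difference −0.25, limma adjusted p = 0.0509, leaving 0 of the 10 genes called) and with the length and GC correction (−0.21), under which *Esam* was called (−0.28) and *Itga5* (0.01), *Itga9* (0.02) and the ratio of *Itga4* to *Itgb1* (0.03) changed sign. The cause was not tested. With 3 samples a group and unknown depth, small differences such as that of *Itga6* were at the limit of the test.

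Centring on ribosomal protein genes turned 12863 of the 13108 tested genes into calls, 11955 of them 1.5-fold. All 10 genes were then called (10 at 1.5-fold), with log2 differences of −0.99 for *Itga4*, −0.89 for *Itga5*, −0.93 for *Itga9*, −0.96 for *Itgb1*, −0.73 for *Itgb2*, −0.67 for *Itgb7*, −0.87 for *Selplg*, −0.82 for *Cd44* and −1.06 for *Esam*. Among the other named genes *Itgb4* (−0.05), *Itga2b* (−0.55), *Lama5* (−0.18), *Cd47* (−0.39), *Icam4* (−0.58), *Adam15* (−0.53) and *Bcar1* (−0.54) changed sign. The calls, those at 1.5-fold and the median became 12, 11 and −0.943 for other integrin subunits, 30, 29 and −0.915 for the adhesion machinery, 6, 6 and −0.777 for ligands, 23, 21 and −0.958 for homing and junction molecules, 10, 10 and −0.844 for glycosylation enzymes, and 9, 8 and −0.932 for sheddases and proteases.

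Without a filter the medians of other integrin subunits and ligands were −0.024 and 0.008, and 2 machinery genes were called. In the upper 25% of genes the medians were −0.033 for other integrin subunits, 0.175 for ligands, 0.064 for glycosylation enzymes and 0.119 for sheddases, and 1 glycosylation enzyme was called; *Itga9* was not tested there. Quantile normalization gave 7 machinery calls, 1 at 1.5-fold, and a median of −0.086. Limma without trend called 1 machinery gene and 1 glycosylation enzyme. The linear model without moderation called 573 genes, with 0 other integrin subunits, 0 machinery genes, 1 ligand (1 at 1.5-fold), 0 homing molecules and 0 sheddases; of the named genes in these lists only *Spp1* kept its call. The length and GC correction moved the medians of other integrin subunits to −0.022 and of glycosylation enzymes to 0.070.

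With 1 sample left out, calls ranged from 1253 to 1999 over all genes, from 0 to 0 among the 10 genes, from 2 to 5 for machinery, from 2 to 4 for homing molecules, from 0 to 1 for glycosylation enzymes and from 1 to 4 for sheddases. Medians ranged from −0.109 to −0.002 for other integrin subunits, from −0.068 to −0.019 for machinery and from −0.102 to −0.031 for sheddases. Log2 differences ranged from −0.09 to 0.08 for *Itga5*, from −0.27 to −0.24 for *Itga6*, from −0.06 to 0.05 for *Selplg* and from −0.00 to 0.09 for *Cd44*. Ratios ranged from −0.14 to 0.05 for *Itga4* to *Itgb1*, from −0.03 to 0.19 for *Itga5* to *Itgb1*, from −0.03 to 0.09 for *Itga9* to *Itgb1* and from −0.02 to 0.09 for *Cd44* to *Selplg*.

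A replicate block gave 1936 calls, 1372 higher and 564 lower, and *Itga6* was called in it as well (limma adjusted p = 0.0312). Machinery calls went from 4 to 6.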
